A study of Arabidopsis thaliana with 30 samples.

Results

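RNA was compared between an H2A.W mutant (label W, h2a.w-2) and an H2A.X mutant (label X, h2a.x-1) of Arabidopsis thaliana, both without DNA damage treatment. The 6 libraries carrying those labels, 3 of W mock and 3 of X mock, were taken from the 30 libraries of the series, and the wild type (Col) did not enter the difference itself. All 30 libraries, Col and MMS included, entered the estimate of the spread behind each test. All plants were in the Columbia background and were 7 days old, raised on Murashige and Skoog plates under long days. The protocol speaks of seedlings and the tissue label of leaves. The series also holds Col, a tsk mutant and the combined mutant h2a.x/w-2, and it repeats every genotype with methyl methanesulfonate (MMS, a DNA-alkylating agent) at a dose and duration not given in the labels. The W and X libraries treated with MMS are other samples than the 6 compared and are given beside them, and Col mock levels are given for orientation only. The kind of each mutant allele is not stated. Nothing in the labels says that replicates came from separate cultures, so p-values measure the spread between these samples, which may be technical.

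H2A.X and H2A.W are variants of the core histone H2A. H2A.X carries a C-terminal motif that kinases phosphorylate around DNA breaks, and in plants H2A.W marks heterochromatin. The title of the series names TONSOKU (TSK), a protein that acts at replication forks in DNA repair, as a protein recruited by the tails of both variants. Setting W against X asks how transcript levels differ when one variant or the other is affected.

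The 6 libraries held 15525950 to 17217894 reads over the listed genes. Between libraries of a group the reads differed by 3.56 to 7.38 times the counting noise in W mock and by 2.09 to 2.95 times in X mock (chi-square per degree of freedom), so none was a copy of another. Of 20256 genes tested with limma on log2(normalized count + 1), 737 were higher in W than in X (3.64%) and 890 were lower (4.39%), both at an adjusted p under 0.05. A difference of at least 2-fold was reached by 59 of the higher (0.291%) and 78 of the lower genes (0.385%). The median log2 difference (W minus X) over all tested genes was -0.01. The total of 1627 called genes (8.03%, and 0.676% with at least 2-fold) was 846 when X mock replicate 2 was left out, 1043 for X mock replicate 1 and 1063 for W mock replicate 3. It was 1817 with only the 6 libraries in the fit. Leaving replicate 1 of the combined mutant (XW) in mock out of the spread gave 2178. Called genes lay on all 5 nuclear chromosomes, with 3.25% to 4.03% of tested genes higher and 3.38% to 5% lower on each. A running median of the log2 difference over 15 neighbouring genes stayed between -0.39 and 0.22.

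**Figure D1:**
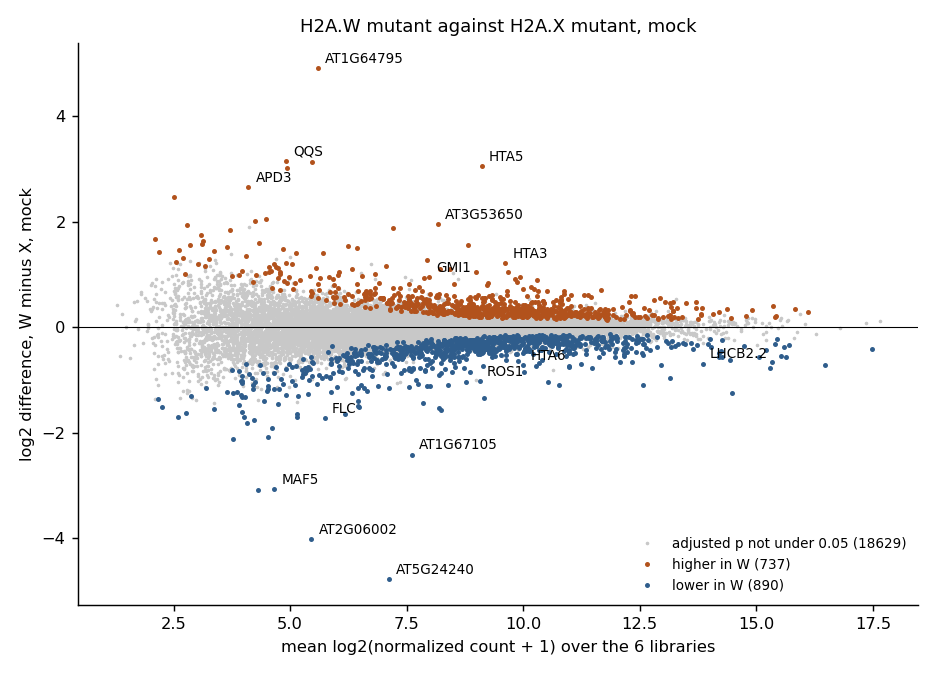
Log2 difference (W minus X, mock, vertical axis) of the 20256 tested genes against their mean log2(normalized count + 1) over the 6 libraries, with genes called higher (737) and lower (890) in colour. Most called genes lay within 2-fold of no difference, and AT1G64795, QQS and HTA5 lay at the top while AT5G24240 and AT2G06002 lay at the bottom.

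The genes of the variants themselves were examined first, since they bear on the labels. HTA5 (AT1G08880, chr1:2846894-2848100, minus strand), one of the pair of H2A.X genes, had normalized counts of 1571, 1658 and 1548 in W mock, against 171, 195 and 209 in X mock. Each W library lay above each X library, and the log2 difference was 3.05 (SE 0.08, adjusted p = 2.5e-21). The Col mock mean of HTA5 was 1039.8 ± 10.4 (SD, n = 3), which is below every W library and above every X library.

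HTA3 (AT1G54690), the other H2A.X gene, had 1171, 1221 and 1174 in W mock, against 485, 525 and 532 in X mock. It was higher in all 3 W libraries, by 1.21 on the log2 scale (SE 0.08, adjusted p = 2.6e-11), while the Col mock mean was 594 ± 38.2, nearer to X than to W. A gene on the opposite strand, AT1G54680, overlaps 32.3% of the exon bases of HTA3, and its own log2 difference was -0.05 (adjusted p = 0.91).

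HTA6 (AT5G59870, chr5:24115354-24116220, minus strand), an H2A.W gene, ran the other way, with 776, 840 and 780 in W mock, against 1252, 1340 and 1348 in X mock. The groups did not overlap, and HTA6 was lower in W by a log2 difference of -0.72 (SE 0.08, adjusted p = 4.8e-07), with a Col mock mean of 1144 ± 38.5 between them. HTA7, a second H2A.W gene, had 623, 642 and 635 in W mock, against 839, 785 and 838 in X mock.

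The W and X values of HTA7 did not overlap, yet the log2 difference of -0.37 (SE 0.12) had an adjusted p of 0.059. HTA12, the remaining H2A.W gene, had 193, 206 and 199 in W mock, against 159, 147 and 145 in X mock (log2 difference 0.41, adjusted p = 0.077), also without overlap. When XW mock replicate 1, a library that differed from the others of its group by 17.1 and 18.5 times the counting noise, was left out of the shared spread, HTA7 and HTA12 passed the test with unchanged differences (adjusted p = 0.00014 and 0.032; over all 18 alternatives 0.00014 to 0.15 for HTA7 and 0.022 to 0.19 for HTA12). TSK itself had 191, 144 and 136 in W mock, against 139, 143 and 148 in X mock, and these ranges overlapped (log2 difference 0.12, adjusted p = 0.7). Since the allele kinds are not stated, these levels check the X label at HTA5 and do not settle the W label.

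Counted per kilobase of annotated exon, so that genes can be set side by side, HTA5 and HTA3 together gave 2927 ± 86.8 normalized counts per kilobase in W mock, 815 ± 48.8 in X mock and 1684 ± 56.4 in Col mock (SD, n = 3 each). On the same scale the 3 H2A.W genes together gave 1826 ± 58.9 in W mock, 2651 ± 56.3 in X mock and 2345 ± 9.26 in Col mock. The total of the H2A.X genes thus lay above that of the H2A.W genes in W and below it in X and Col. Within X mock, HTA3 (642 ± 31.9 per kilobase) stood above HTA5 (174 ± 17.3), whereas in W mock HTA3 (1484 ± 34.8) and HTA5 (1444 ± 52.7) lay within the spread of the libraries.

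**Figure D2:**
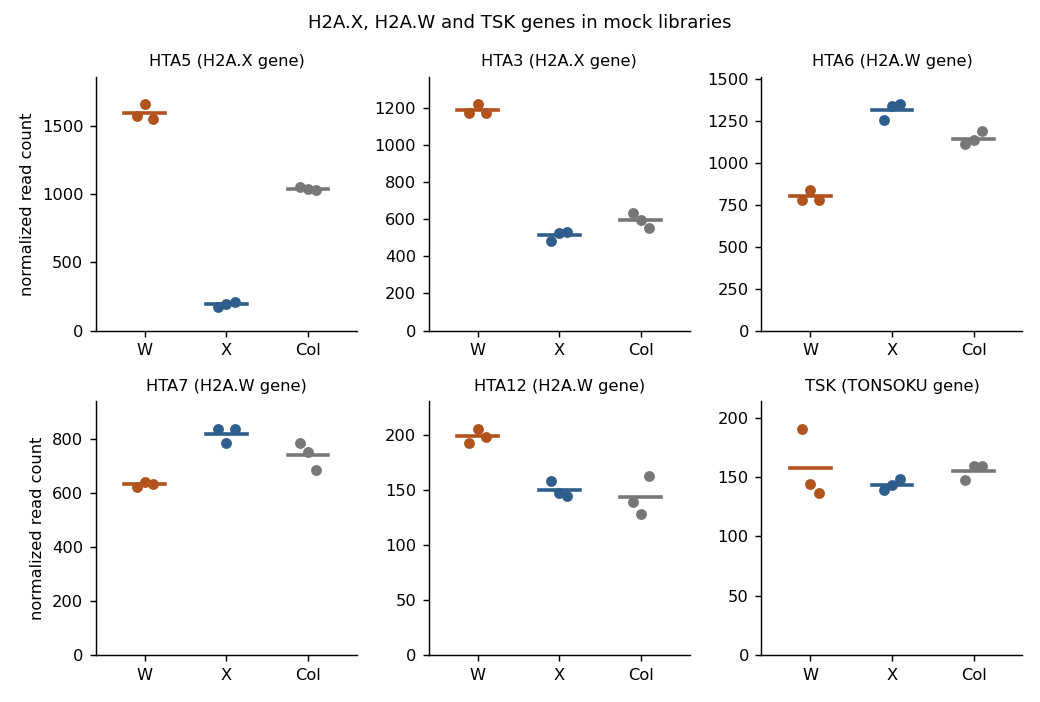
Normalized read counts of the H2A.X genes HTA5 and HTA3, the H2A.W genes HTA6, HTA7 and HTA12, and TSK in W, X and Col mock libraries (points, 3 libraries each; bars, group means; axes start at 0). HTA5, HTA3 and the H2A.W gene HTA12 lay higher in all W than in all X libraries, HTA6 and HTA7 lay lower, and TSK overlapped. The differences of HTA7 and HTA12 were not called.

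Among the listed H2B, H3 and H2A genes other than those of the 2 variants, nearly all H2B genes and some H3 and H2A genes were higher in W. Histones H2A, H2B, H3 and H4 form the nucleosome, and in plants the replication-dependent ones are made in S phase. The lists held no H4 group, so nothing is said here of H4 or of core histones in general. Of 10 tested H2B genes 9 were higher in W and none was lower, against 3.64% higher and 4.39% lower among all tested genes. The median log2 difference of the H2B list was 0.67. Several H2B genes and several H3 genes have nearly identical coding sequences, and the notes do not say how reads shared by copies were counted, so the split between members is uncertain.

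AT3G53650, an H2B gene (annotated as a histone superfamily protein), had 576, 553 and 563 in W mock, against 121, 155 and 164 in X mock and a mean of 58.3 in Col mock. Every W library was more than 3 times as high as any X library, and the log2 difference was 1.95 (SE 0.15, adjusted p = 7.2e-10). HTB1 had 1264, 1228 and 1248 in W mock, against 654, 671 and 746 in X mock (log2 difference 0.85, SE 0.07, adjusted p = 5.3e-09).

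HTB11 had 2101, 2065 and 2129 in W mock, against 1405, 1526 and 1509.9 in X mock (log2 difference 0.50, SE 0.06, adjusted p = 1.7e-06). In these 3 genes the groups did not overlap. The less abundant AT3G09480 had 141, 137 and 108 in W mock, against 46.8, 49.5 and 35.7 in X mock (log2 difference 1.53, adjusted p = 9.1e-06).

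AT5G02570 was also called (log2 difference 1.60, adjusted p = 0.016), but all of its exon lies within HTA12 on the opposite strand, and the call was lost without X mock replicate 1 (adjusted p = 0.081), X replicate 2 (0.08) or W mock replicate 3 (0.1), with a range of 0.00023 to 0.1 over all alternatives. The exception among the 10 was AT2G28720, with a log2 difference of 0.33 (adjusted p = 0.058) and no overlap between the groups. For all 10 H2B genes the X mock mean was above the Col mock mean, and the W mock mean was higher again.

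Of 9 tested H3 genes 4 were higher in W and none was lower, with a list median of 0.25. AT5G10400, which encodes the replicative form H3.1, had 1055, 1099 and 1027 in W mock, against 701, 786 and 804 in X mock (log2 difference 0.47, SE 0.09, adjusted p = 0.0017). The H3.1 genes AT1G09200 and AT5G65360 followed with log2 differences of 0.36 (adjusted p = 0.0066) and 0.31 (adjusted p = 0.0073). AT5G10980, a gene of the replacement form H3.3, was higher by 0.21 (adjusted p = 0.0055), while the other tested H3.3 genes, AT4G40030 and AT4G40040, had log2 differences of 0.04 and 0.08 with overlapping groups.

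HTR12, the centromeric H3, had 85.9, 83.5 and 90.6 in W mock, against 86.7, 66.7 and 67.1 in X mock (log2 difference 0.25, adjusted p = 0.52). Of 7 further H2A genes HTA2 (log2 difference 0.59, adjusted p = 4e-06) and HTA13 (0.49, adjusted p = 0.00022) were higher, both genes of canonical H2A, and none was lower. HTA9, a gene of the variant H2A.Z, had 1206, 1353 and 1179 in W mock, against 1334, 1354 and 1469.9 in X mock (log2 difference -0.15, adjusted p = 0.26). Of the 3 genes of the linker histone H1 limma called 0, with 0 at an unadjusted p under 0.05 and 0 called by edgeR.

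Promoters of plant histone genes often hold an octamer, CGCGGATC, and it was looked for on both strands from 250 bases before to 50 bases after each annotated gene start. It was found in 4 of 9 H3 promoters (44.4%), 2 of 7 promoters of the further H2A genes (28.6%), 1 of 3 H1 promoters (33.3%) and 0 of 10 H2B promoters, against 33 of 20255 tested promoters (0.163%). The H3 promoters with the octamer were those of AT5G65360, AT1G09200, AT5G10400 and AT4G40040, and the H2A promoters those of HTA10 and HTA13. HTA6, whose level was lower in W, also holds it. Of these 7 genes 4 were called higher in W (AT5G65360, AT1G09200, AT5G10400 and HTA13), HTA6 was called lower, and AT4G40040 and HTA10 were not called, nor was any H1 gene. The promoters of the 2 H3.1 genes with the largest called differences are given because they show the octamer in single and in repeated form, in capitals, 5′ to 3′ on the coding strand (TAIR10.1; AT5G10400 at chr5:3270908-3271207 and AT1G09200 at chr1:2972285-2972584, both minus strand).
AT5G10400: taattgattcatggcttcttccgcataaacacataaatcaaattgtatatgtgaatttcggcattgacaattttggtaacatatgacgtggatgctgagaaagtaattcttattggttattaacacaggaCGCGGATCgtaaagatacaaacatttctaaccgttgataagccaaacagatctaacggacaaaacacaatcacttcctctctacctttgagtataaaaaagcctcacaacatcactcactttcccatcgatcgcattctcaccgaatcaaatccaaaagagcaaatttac
AT1G09200: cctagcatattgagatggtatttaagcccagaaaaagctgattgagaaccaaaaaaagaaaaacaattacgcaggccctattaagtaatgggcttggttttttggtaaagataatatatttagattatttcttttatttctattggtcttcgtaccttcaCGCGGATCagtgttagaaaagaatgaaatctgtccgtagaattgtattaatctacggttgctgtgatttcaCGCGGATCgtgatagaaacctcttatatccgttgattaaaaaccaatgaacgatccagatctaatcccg

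In the MMS libraries, which are other samples of the same genotypes, 8 of the 10 H2B genes were higher in W than in X and none was lower (3.4% and 3.08% of all tested genes were higher and lower there), with a list median of 0.49. AT3G53650 had a log2 difference of 1.57 under MMS (adjusted p = 8.5e-08) and 1.95 in mock, and the difference between these was not called (adjusted p = 0.46). HTB1 stood at 0.58 under MMS and 0.85 in mock. Of the H3 genes 5 were higher under MMS, among them AT5G10400 (0.79, adjusted p = 2.7e-06).

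**Figure D3:**
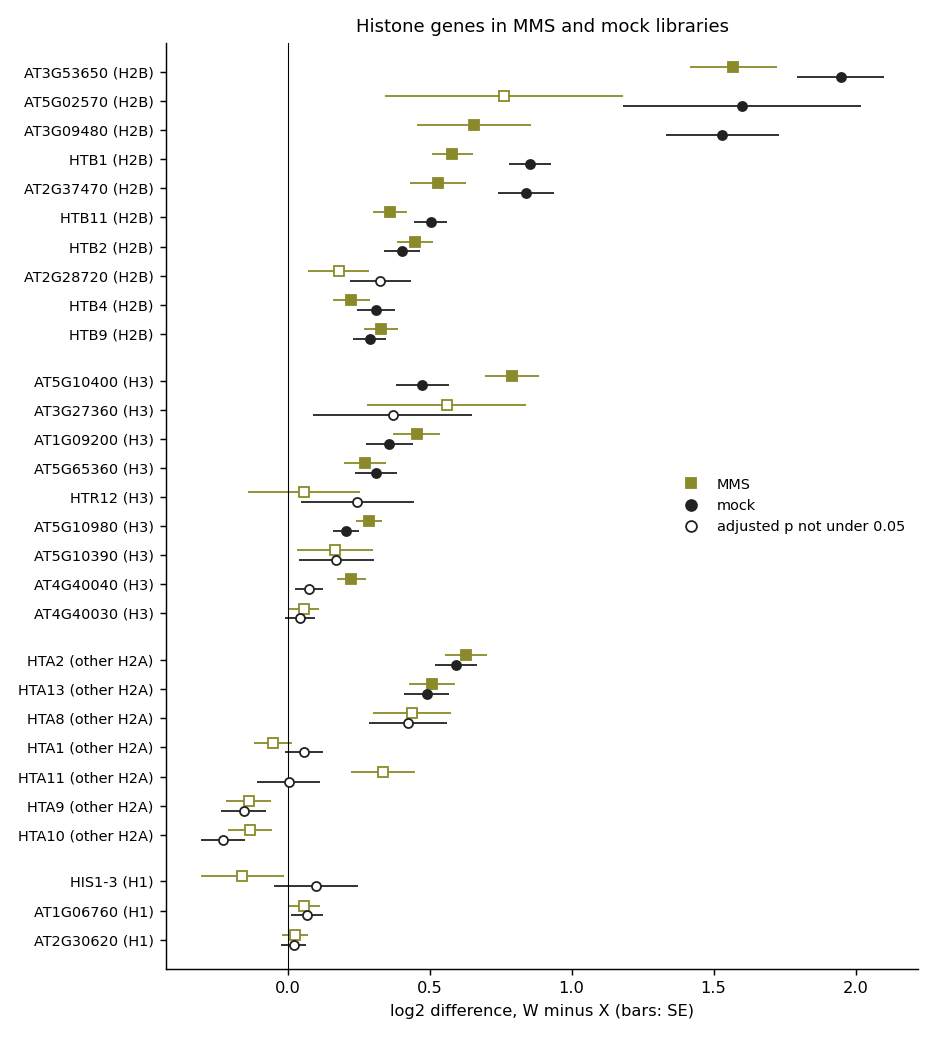
Log2 difference (W minus X) with its SE for each tested H2B, H3, other H2A and H1 gene, in MMS libraries (upper square) and mock libraries (lower circle), filled where the adjusted p was under 0.05. All 10 H2B genes and all 9 H3 genes lay to the right of 0 in both sets of libraries, with AT3G53650 farthest.

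In plants the transcription factor SOG1, switched on by the kinases ATM and ATR, raises repair genes and inhibitors of the cell cycle. Of 27 tested genes of the DNA damage response 6 were higher in W and none was lower (3.64% and 4.39% of all tested genes). The list median was 0.20 against -0.01 for all genes, and 24 of the 27 log2 differences were above 0. Without X mock replicate 2 the count of higher genes was 3.

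GMI1, a hinge-domain protein of recombination repair, had 344, 315 and 395 in W mock, against 172, 167 and 209 in X mock. Every W library lay above every X library (log2 difference 0.94, SE 0.11, adjusted p = 8.7e-07), and X was near the Col mock mean of 162. NAC044, a relative of SOG1 that acts in cell cycle arrest, had 62.5, 40.1 and 67 in W mock, against 19.4, 18.3 and 23.8 in X mock (log2 difference 1.40, SE 0.22, adjusted p = 0.00012).

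NAC103, a further NAC factor, had 53.0, 39.1 and 55.3 in W mock, against 24.0, 14.0 and 26.0 in X mock (log2 difference 1.2, SE 0.30, adjusted p = 0.011). In NAC044 and NAC103 the groups did not overlap, and the Col mock means were 13.1 and 12.6. SMR7, an inhibitor of cyclin-dependent kinases, was the weakest call. It had 18, 27.1 and 11.8 in W mock, against 10.3, 4.30 and 14.1 in X mock (log2 difference 0.97, adjusted p = 0.044), and these ranges overlapped.

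RAD17, a loader of the checkpoint clamp, had 162, 166 and 143 in W mock, against 121, 104 and 119 in X mock (log2 difference 0.45, adjusted p = 0.007). TSO2, a small subunit of ribonucleotide reductase, had 1986, 1921 and 2017 in W mock, against 1639, 1494 and 1718 in X mock (log2 difference 0.29, adjusted p = 0.0067). Neither pair of groups overlapped, but the TSO2 call was lost without X mock replicate 2 (adjusted p = 0.068, range over all alternatives 0.0026 to 0.068). CYCB1;1, a mitotic cyclin known to rise after DNA damage, had 137, 123 and 159 in W mock, against 89.0, 131 and 106 in X mock (log2 difference 0.37, adjusted p = 0.081).

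The palindrome bound by SOG1, CTT and AAG on either side of 7 bases of any kind, was found in 10 of the 27 damage response promoters (37%), against 2239 of 20255 promoters (11.1%). Other lists also stood above that share, with 5 of 12 oxidative and xenobiotic promoters (41.7%), 4 of 14 salicylic acid and immune promoters (28.6%) and 3 of 11 heat promoters (27.3%). NAC044, NAC103 and SMR7 were among the 10, and GMI1, RAD17 and TSO2 were not. The promoters of NAC044 (chr3:228825-229124, plus strand) and SMR7 (chr3:10231518-10231817, minus strand) are printed as examples with 1 and with 2 matches, in capitals, from TAIR10.1. In SMR7 the second match lies after the annotated gene start.
NAC044: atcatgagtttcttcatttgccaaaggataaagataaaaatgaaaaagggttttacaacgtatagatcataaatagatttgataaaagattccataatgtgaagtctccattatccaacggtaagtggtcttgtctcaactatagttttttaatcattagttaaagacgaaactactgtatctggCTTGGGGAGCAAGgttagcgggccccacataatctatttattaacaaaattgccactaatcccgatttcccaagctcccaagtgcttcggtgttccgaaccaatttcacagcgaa
SMR7: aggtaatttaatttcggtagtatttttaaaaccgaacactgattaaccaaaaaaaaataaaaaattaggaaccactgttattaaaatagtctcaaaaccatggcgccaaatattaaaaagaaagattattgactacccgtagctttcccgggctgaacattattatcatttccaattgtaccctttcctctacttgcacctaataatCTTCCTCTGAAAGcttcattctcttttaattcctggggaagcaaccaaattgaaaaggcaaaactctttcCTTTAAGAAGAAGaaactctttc

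Genes that carry out recombination and fork repair held no call. With 8.03% of all tested genes called, nothing particular is read from that. Among 19 tested genes, MRE11, RAD50, FANCD2 and RTEL1 included, limma called 0, with 2 at an unadjusted p under 0.05 and 0 called by edgeR, and the median was 0.02. DNA replication genes were higher in 4 of 18 cases and lower in none (median 0.14), against 3.64% and 4.39% of all tested genes. RNR2A, another small subunit of ribonucleotide reductase, had 810, 802 and 894 in W mock, against 641, 630 and 692 in X mock (log2 difference 0.35, adjusted p = 0.0024).

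The replication helicase gene MCM5 had 809, 743 and 795 in W mock, against 611, 613 and 651 in X mock (log2 difference 0.32, adjusted p = 0.0056). CDC45, the partner of that helicase, had 162, 149 and 152 in W mock, against 104, 97.8 and 112 in X mock (log2 difference 0.56, adjusted p = 0.0094). In RNR2A, MCM5 and CDC45 the groups were apart, and CDC45 was not called without X mock replicate 2 (adjusted p = 0.057, range 0.0046 to 0.057). RNR1, the large subunit of ribonucleotide reductase, was higher by 0.24 (adjusted p = 0.014) with overlapping groups.

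Without X mock replicate 2 the count of replication genes was 2. An E2F site (TTTCCCGC or TTTGGCGC, either strand) was present in 9 of the 18 replication promoters (50%), against 262 of 20255 promoters (1.29%). Of the called genes MCM5 and RNR1 had a site, and RNR2A and CDC45 did not. The other replication promoters with a site belong to genes that were not called. Of 20 genes of G2 and mitosis limma called 0 in mock, with 0 at an unadjusted p under 0.05 and 0 called by edgeR, at a median of 0.11. In the MMS libraries 9 of these 20 were higher in W and none lower (3.4% and 3.08% of all tested genes), with a median of 0.41. The change of the W and X difference with MMS, however, was called for 0 of the 20. The damage response list had 2 higher and none lower under MMS, GMI1 (0.70, adjusted p = 0.0001) and CYCB1;1 (0.61, adjusted p = 0.0036), while NAC044 stood at 0.26 under MMS and 1.40 in mock (adjusted p of the difference 0.07).

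Genes of gene silencing, among them the DNA methyltransferases MET1 and CMT3 and the remodeller DDM1, showed 1 call of 19. Of all tested genes 8.03% were called. The call in the list was ROS1, a DNA glycosylase that removes DNA methylation and whose own promoter is known to respond to methylation. ROS1 had 445, 314 and 380 in W mock, against 764, 759 and 771 in X mock. It was lower in every W library (log2 difference -1.02, SE 0.12, adjusted p = 2.6e-06), with a Col mock mean of 606 between the groups. Under MMS the log2 difference was -0.65 (adjusted p = 0.0013). The median of the silencing list was 0.03.

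Flowering-time genes were lower in W in 4 of 14 cases and higher in 1 (4.39% and 3.64% of all tested genes). The list median was -0.15. The 4 lower genes are FLC, a MADS-box repressor of flowering, and its relatives MAF5, MAF4 and FLM. MAF5 had 7.42, 6.51 and 9.41 in W mock, against 75.3, 86.0 and 58.4 in X mock. The groups were far apart, with X above and W below the Col mock mean of 13.1, and the log2 difference was -3.08 (SE 0.20, adjusted p = 2.6e-11).

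FLC had 25.4, 38.0 and 23.5 in W mock, against 113, 86.0 and 91.9 in X mock (log2 difference -1.73, SE 0.25, adjusted p = 3.7e-05), and here both groups lay below the Col mock mean of 154. The antisense gene AT5G01675 overlaps 68.1% of the exon bases of FLC, and without strand the reads of the pair cannot be told apart. MAF4 had 36, 59.7 and 43.5 in W mock, against 62.7, 98.9 and 66 in X mock (log2 difference -0.70, adjusted p = 0.0059). The MAF4 groups were apart by a narrow margin, and the call was lost without X mock replicate 2 (adjusted p = 0.079), without W mock replicate 1 (0.054) or with only the groups compared in the fit (0.073), with a range of 0.00096 to 0.079.

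FLM was lower by a log2 difference of -0.24 (adjusted p = 0.037). The list held 2 lower genes without X mock replicate 2 or without W mock replicate 1. SMZ, an AP2-type repressor of flowering, had 432, 445 and 460 in W mock, against 352, 343 and 353 in X mock (log2 difference 0.35, adjusted p = 0.028), with Col at 452. Under MMS the same 4 MADS-box genes were again called lower, MAF5 by -2.86 (adjusted p = 1.3e-10) and FLC by -2.18 (adjusted p = 1.1e-06), in other samples that entered the mock test only through the shared spread.

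Photosynthesis genes, used as markers of leaf tissue, were lower in W in 7 of 13 cases and higher in 1. Among all tested genes 4.39% were lower and 3.64% higher. The list median was -0.32. The 7 lower genes all encode light-harvesting proteins, which bind chlorophyll and feed the photosystems. LHCA1 had 41941, 34746 and 40973 in W mock, against 56119, 60825 and 54073 in X mock (log2 difference -0.54, SE 0.09, adjusted p = 0.00047). LHCB2.2 had 12994, 9769 and 12424 in W mock, against 18621, 20290.0 and 17613 in X mock (log2 difference -0.69, SE 0.12, adjusted p = 0.00055).

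In both genes W mock replicate 2 was the lowest library and the groups did not overlap, and the W means were near those of Col (40665 for LHCA1 and 11783 for LHCB2.2). RBCS1B, a small subunit of Rubisco, was the 1 called higher, with 21571, 26667 and 23470 in W mock, against 18154, 19418 and 18649 in X mock (log2 difference 0.35, adjusted p = 0.015). The other Rubisco genes RBCS1A, RBCS2B and RBCS3B had log2 differences of 0.11, 0.02 and -0.01. LHCB1.1, LHCB1.3, LHCB2.1 and LHCB2.2 belong to groups of close copies, with the limit on shared reads given for histones.

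Summed per kilobase over the 13 leaf markers, the level was 599876 to 642780 in W mock, 689352 to 748335 in X mock and 651315 to 664938 in Col mock. In bulk RNA fewer cells of a type and less RNA per cell cannot be told apart. Of 12 root markers limma called 0 (0 at an unadjusted p under 0.05, 0 by edgeR), and their sum per kilobase was 1223 to 1388 in W mock and 1297 to 1454 in X mock, ranges that overlap. Every gene listed held at least 1 read in every library, so root markers above 0 do not bear on the tissue label. Of 6 tested shoot meristem markers CLV1, a receptor kinase of stem cell control, was lower (1181, 996 and 1099 in W mock, against 1412, 1443 and 1326 in X mock, log2 difference -0.35, adjusted p = 0.0023). The meristem sum was 441 to 497 per kilobase in W mock and 541 to 580 in X mock, while WUS and CLV3 were not analysed here. What part these shifts have in the other gene groups was not tested. Under MMS the leaf list had 3 genes higher in W and none lower (3.4% and 3.08% of all tested genes).

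**Figure D4:**
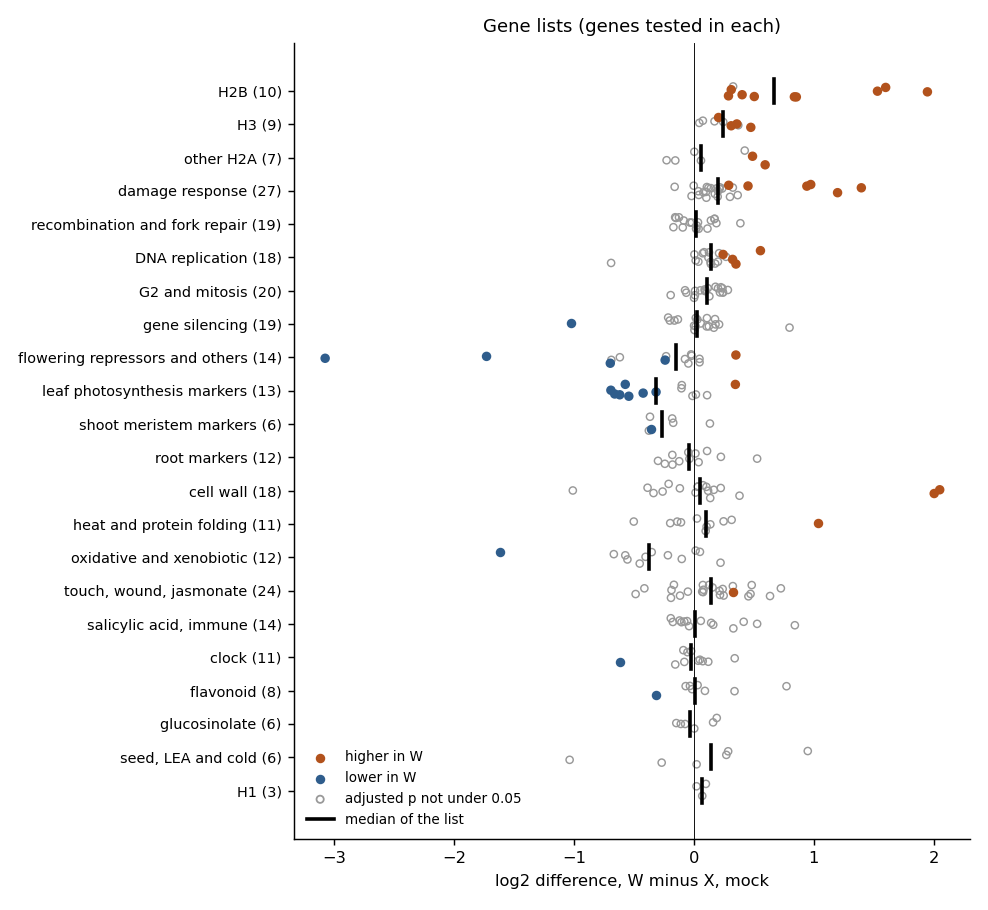
Log2 difference (W minus X, mock) of each tested gene in the gene lists, with the number tested in brackets, filled where the adjusted p was under 0.05, and the list median as a black bar. The H2B list lay wholly to the right of 0, the damage response list mostly so, and leaf photosynthesis and flowering genes extended to the left.

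Calls in stress and growth lists are given beside those among all tested genes, of which 3.64% were higher and 4.39% lower. Nothing particular is read from the count of any of these lists. In the cell wall list limma called 2 of 18 higher and 0 lower, with 3 lower at an unadjusted p under 0.05, while edgeR called 2 higher and 2 lower. PGAZAT, a polygalacturonase that loosens pectin where cells part, had 51.9, 44.5 and 37.6 in W mock, against 13.7, 5.38 and 13.0 in X mock (log2 difference 2.05, adjusted p = 0.00042). EXPA2, an expansin, had 30.7, 42.3 and 38.8 in W mock, against 11.4, 11.8 and 4.33 in X mock (log2 difference 2.0, adjusted p = 0.011). Both genes were higher still in Col mock, at 130 and 77.7, so that X lay lowest of the 3 genotypes. The EXPA2 call was lost without X mock replicate 3 (adjusted p = 0.08, range 0.00077 to 0.08).

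The clock gene PRR7 was the 1 lower gene of 11 in its list, with 1126, 978 and 1194 in W mock, against 1592, 1799.97 and 1661 in X mock (log2 difference -0.62, adjusted p = 3.8e-05). The heat factor HSFA2 (1.04, adjusted p = 0.023) was the 1 higher of 11 heat and protein folding genes, and ELI3-2, an alcohol dehydrogenase of defence, was the 1 lower of 12 oxidative and xenobiotic genes (log2 difference -1.62, adjusted p = 0.022). Neither was called by edgeR (adjusted p = 0.11 and 0.39), and over all alternatives the ranges were 0.005 to 0.11 for HSFA2 and 0.0078 to 0.4 for ELI3-2. TCH2, a calmodulin-like touch gene, was the 1 higher of 24 touch, wound and jasmonate genes (0.32, adjusted p = 0.049), and TT7, an enzyme of flavonoid synthesis, the 1 lower of 8 flavonoid genes (-0.32, adjusted p = 0.043).

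TCH2 and TT7 were each lost when any of several single libraries was left out, with only mock libraries in the fit (adjusted p = 0.053 and 0.063), and with the replicate block (0.053 and 0.055). TT7 was also lost with only the groups compared (0.065, and 0.071 with the block) and with the FPKM values (0.057). Limma called 0 of 14 salicylic acid and immune genes (2 at an unadjusted p under 0.05), 0 of 6 seed, LEA and cold genes and 0 of 6 glucosinolate genes (0 at an unadjusted p under 0.05 in each), and edgeR called 0 in all 3 lists. Their medians were 0.01, 0.15 and -0.03.

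Outside the lists, the largest rises and falls in W relative to X were as follows. AT1G64795, a gene of an uncharacterized protein (chr1:24082579-24082848), had 238, 276 and 281 in W mock, against 16.0, 5.38 and 5.41 in X mock (log2 difference 4.91, SE 0.35, adjusted p = 8e-11). The groups were far apart, and Col mock lay between at 39.2. The gene AT1G64790 on the opposite strand overlaps 70.6% of its exon bases and had a log2 difference of 0.08 (adjusted p = 0.46).

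QQS, a gene that affects starch content, had 98.6, 82.5 and 87.0 in W mock, against 10.3, 9.68 and 7.57 in X mock (log2 difference 3.16, SE 0.30, adjusted p = 3.5e-08), and Col mock was at 10.6, the level of X. AT4G04223, an RNA without a protein product, had 57.2, 98.7 and 113 in W mock, against 9.12, 11.8 and 8.65 in X mock (log2 difference 3.01, adjusted p = 5e-10), with Col mock at 71.7, the level of W. These genes show both patterns, W apart from Col and X apart from Col.

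AT3G01345, of unknown function, had 118, 165 and 112 in W mock, against 7.98, 4.30 and 69.2 in X mock. X mock replicate 3 stood far above the other X libraries, and the log2 difference of 3.12 (adjusted p = 0.00081) was 4.24 without it and 2.38 when replicate 2 of X was left out. The further large rises were APD3, a RING-type ubiquitin ligase of pollen development (2.66), the cysteine proteinase gene AT1G29090 (1.88), TBL26, of a family that acetylates cell wall sugars (1.55), CYP710A4, a sterol desaturase (1.5), and the F-box gene AT3G44120 (1.49). CYP710A4 was not called without X mock replicate 2 (adjusted p = 0.057, range 0.00026 to 0.057).

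The deepest fall was AT5G24240, annotated as a phosphatidylinositol 4-kinase gamma-like protein (chr5:8230916-8234150, minus strand). It had 19.1, 19.5 and 43.5 in W mock, against 732, 714 and 724 in X mock (log2 difference -4.78, SE 0.28, adjusted p = 2.2e-12), and Col mock lay at 107. The non-coding RNA AT2G06002 had 5.30, 10.9 and 16.5 in W mock, against 168, 163 and 198 in X mock (log2 difference -4.02, SE 0.28, adjusted p = 8e-11). In both, X was above and W below the Col mock mean (29.9 for AT2G06002).

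AT5G56370, an F-box gene, had 4.24, 7.6 and 5.88 in W mock, against 73.0, 48.4 and 51.9 in X mock (log2 difference -3.10, SE 0.23, adjusted p = 1.4e-10), with Col mock at 69.1, the level of X. The non-coding RNA AT1G67105 had 75.3, 82.5 and 95.3 in W mock, against 472, 404 and 485 in X mock (log2 difference -2.42, adjusted p = 9.6e-09), and Col mock was lower than both at 41.7. CYP71B22, a cytochrome P450, was lower by a log2 difference of -2.09, GolS4, which makes the raffinose precursor galactinol, by -1.91, and AT1G64360, of unknown function, by -1.76.

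AT3G55240 (-1.70), the RING gene AT3G20395 (-1.65), the efflux carrier gene AT3G23550 (-1.65), the methyltransferase gene AT1G15125 (-1.57), the extensin-family gene AT3G16670 (-1.53) and the pyruvate decarboxylase gene AT4G33070 (-1.52) complete, with MAF5 and FLC, the 15 largest falls among calls that averaged 20 or more and whose groups did not overlap. AT3G16670 had 193, 155 and 165 in W mock, against 525, 501 and 458 in X mock, with no overlap.

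The same contrast in the MMS libraries called 689 genes higher (3.4%) and 624 lower (3.08%) in W, 6.48% together. Of the 1627 mock calls 304 were also called there in the same direction, which is 18.7% of the mock calls and 23.2% of the 1313 MMS calls, and 8 were called in the opposite direction. The direction was the same for 1296 of the mock calls (79.7%), against 60.2% of all tested genes. Among the 137 genes with at least 2-fold differences in mock, 120 had the same direction and 58 were called in the same direction under MMS. AT1G64795 stood at 6.53 under MMS, QQS at 3.87, AT5G24240 at -5.08 and AT2G06002 at -3.64, each with an adjusted p of at most 7.1e-10.

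The difference between W and X itself changed with MMS at 167 genes (0.824%), 111 with a higher (0.548%) and 56 with a lower value (0.276%) under MMS. Of the mock calls 106 were among them, but the mock difference enters both calls, which favours such an overlap. The count of 167 was 376 when XW mock replicate 1 was left out of the shared spread, and 51 without X mock replicate 2. LHCA1 and MCM5, called in mock, were not called under MMS, but their change with MMS was not called either (adjusted p = 0.21 and 0.35).

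**Figure D5:**
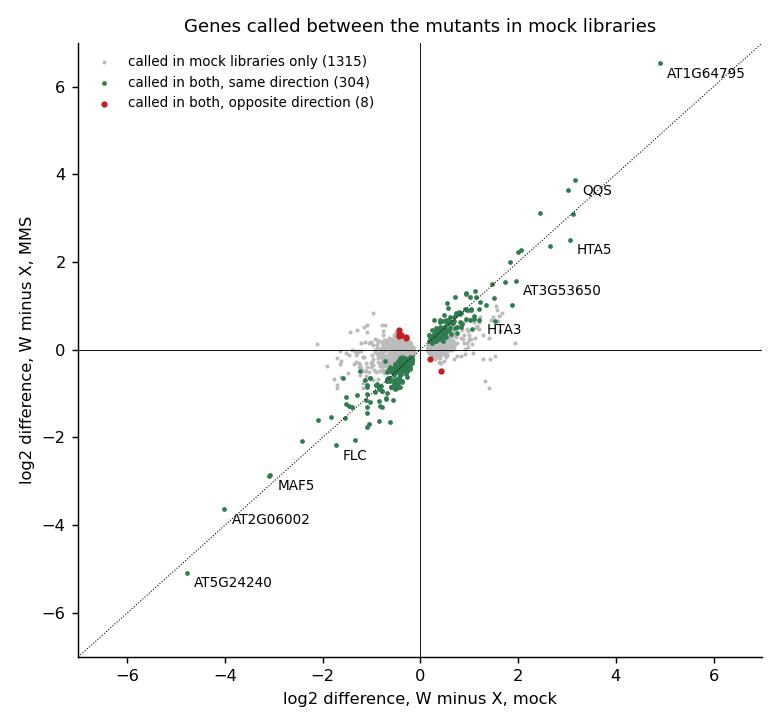
Log2 difference (W minus X) under MMS (vertical axis) against that in mock (horizontal axis) for the 1627 genes called in mock; the dotted line marks equal values. The 304 genes called in both in the same direction run from AT5G24240 to AT1G64795. Some of them lie off the dotted line, such as HTA3 (1.21 in mock and 0.68 under MMS). The 8 called in opposite directions lie in the other quadrants.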

How the data were processed

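RNA sequencing of 30 libraries (10 groups of 3) was used through a table in which, per the submitters' processing notes, the authors aligned paired reads of 150 nt with STAR to TAIR10 and divided the counts by DESeq2 1.30.1 size factors, giving a normalized signal per gene. The strand and the counting of shared reads are not given in the sources used here. All values of that deposited table were whole multiples of one read (100% within 0.01 of a read), and on the recovered reads edgeR's quasi-likelihood test called 758 genes higher and 828 lower in W than in X. The 20404 loci matched the TAIR10.1 annotation, whose chromosomes served for promoters. The authors also deposited FPKM values. The gene length behind each FPKM value was the same in every library but bore no relation to the gene (correlation of log lengths with the gene's own span 0.014, equal for 6 genes), for example 12507 bases for HTA3 with 801 exon bases. FPKM was therefore not used between genes, and levels per kilobase were computed from normalized counts and RefSeq exon lengths.

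A gene was tested when 3 or more libraries reached a normalized count of 10 (20256 genes, 148 left out). The deposited values list only genes with at least 1 read in every library, so a gene silent in any library could not be seen. The test was limma 3.58.1 (R 4.3.3, trended empirical Bayes) on log2(value + 1). All 30 libraries entered 1 model of group means, which left 20 residual degrees of freedom, and p-values were adjusted by Benjamini-Hochberg over all tested genes of a comparison. Fold changes on this scale understate changes of low genes. The contrasts were W minus X in mock, W minus X with MMS, and their difference. Alternatives were edgeR 4.0.16 and DESeq2 1.42.0 on recovered reads, pseudocounts of 0.5 and 5, no filter, FPKM values with a pseudocount of 0.1, fewer libraries in the fit, a replicate block, and leaving out single libraries. Simulated data with known changes were used to test the code.

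Named genes are the variant genes and TSK, up to 3 called members of each list by adjusted p, and the 15 largest differences in each direction among calls that averaged 20 or more and did not overlap between W and X mock. Further named genes were chosen after their values were seen: other members of the histone, H3.3, damage response, flowering, Rubisco and replication lists. The lists hold 331 genes, of which 293 were tested. The members and lists were chosen with earlier results of these data known.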

Additional observations from a re-analysis of the deposited data

Results flagged for a closer look

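At 7 of the named genes the difference between W and X itself differed between MMS and mock libraries (interaction term in limma, adjusted over all tested genes). HTA5 was higher in W by 2.51 on the log2 scale under MMS and by 3.05 in mock, a change of -0.55 (adjusted p = 0.019). HTA3 was higher in W by 0.68 under MMS and 1.21 in mock, a change of -0.53 (adjusted p = 0.021). HTA6 stood at -0.26 under MMS and -0.72 in mock, a change of 0.46 (adjusted p = 0.039). Under MMS its groups overlapped, with 346, 322 and 374 in W against 423, 358 and 470 in X. In these variant genes the direction was the same in both sets of libraries and the size smaller under MMS. Calls of a change depended on single libraries, with 167 among all tested genes and 51 without X mock replicate 2. How far the calls at the variant genes depend on them is not given here.

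AT3G20395, a RING gene, stood at -0.03 under MMS and -1.65 in mock, a change of 1.62 (adjusted p = 0.011). The efflux carrier gene AT3G23550 stood at -0.33 under MMS and -1.65 in mock, a change of 1.31 (adjusted p = 0.027). The methyltransferase gene AT1G15125 stood at -0.63 under MMS and -1.57 in mock, a change of 0.94 (adjusted p = 0.03). TT7 was the 1 gene of the 7 with opposite signs, 0.29 under MMS and -0.32 in mock, a change of 0.60 (adjusted p = 0.032). AT3G20395, AT3G23550, AT1G15125 and TT7 were named because of their mock difference, which the change with MMS subtracts. That choice favours a change towards a smaller difference, so no general loss under MMS is read from these genes.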

How the results depend on the processing

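Of 59 named genes 56 were called in mock. Of these, 46 kept their call under all 18 alternatives, and none of the 59 changed sign past the threshold. The counts of called genes with one library left out were 846 to 1218 in mock (higher 359 to 559, lower 487 to 689), 704 to 1084 under MMS (higher 363 to 581, lower 341 to 607) and 51 to 185 for the difference between MMS and mock (higher 38 to 125, lower 13 to 69). With only the groups compared in the fit, the MMS contrast called 842 genes, 410 of them higher. For the difference, DESeq2 called 288 genes (196 higher, 92 lower), and leaving XW mock replicate 1 out of the shared spread gave 376 (254 higher, 122 lower). The causes were not tested.

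Replicate numbers were not taken to pair the libraries. Deviations of same-numbered W and X mock libraries correlated at 0.049, 0.0073 and -0.038, and of W and X MMS libraries at 0.068, 0.031 and 0.045, none above the 0.1 set for pairing. In mock, replicates 2 and 3 of W correlated better with other numbers of X, while in MMS each correlated best with its own. With the replicate block in the fit of all libraries 726 genes were higher and 864 lower in mock. With only the groups compared in the fit, the block gave 1733 calls in mock, against 1817 without it. Under MMS it gave 1080, against 842 without it. With the FPKM values the fold changes of low genes shrank (gene GolS4 to -0.98). The gene lengths behind that table enter through the pseudocount and through the trend of the spread with mean level. Depth limits the low genes: at 3 libraries a group, genes such as SMR7 or ELI3-2 rest on normalized counts of 4.30 to 35.7 per library.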

Other observations

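Gene families were also grouped by the wording of their annotation, after values had been seen, so their counts are descriptions. Of 18 light-harvesting chlorophyll-binding genes 14 were lower in W than in X and none was higher, with a median log2 difference of -0.56 against -0.01 for all tested genes. LHB1B1, which encodes a major antenna protein of photosystem II, had 16557, 13047 and 15412 in W mock, against 35678, 38530 and 31939 in X mock (log2 difference -1.24, limma adjusted p = 5.9e-08), and stood at 23567 in Col mock. The groups were far apart, and under MMS its difference was -0.48 (adjusted p = 0.014), a change with MMS of 0.76 (adjusted p = 0.029). Among 23 subunits of the photosystems themselves 6 were lower and none higher, at a median of -0.15. Peroxidase superfamily genes were lower in 6 of 47 cases and higher in none, and disease resistance genes of the NBS-LRR type were lower in 8 of 103 and higher in 1. Ribosomal protein genes were higher in 6 of 97 and lower in 2. Among all tested genes 3.64% were higher and 4.39% lower, and nothing particular to the last 3 families is read from their counts.

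Among 440 tested genes that encode no protein 9 were higher and 15 lower, which is no larger a share than among all tested genes (3.64% and 4.39%). AT4G14548 had 47.7, 60.8 and 50.6 in W mock, against 144, 140 and 138 in X mock (log2 difference -1.40, limma adjusted p = 2.1e-05), with Col mock at 44.9, and it stood at -1.30 under MMS (adjusted p = 7.6e-05). AT4G13495 had 2200.3, 2004 and 2209 in W mock, against 1562, 1441 and 1509.9 in X mock (log2 difference 0.51, adjusted p = 5.4e-06). The microRNA precursor MIR850 had 232, 196 and 247 in W mock, against 141, 145 and 159 in X mock (log2 difference 0.59, adjusted p = 0.014). For these 3 RNAs the groups did not overlap. MIR850 lies within the span of AT4G13495 on the same strand, so these are not independent observations.

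The deposited FPKM table should be read within a gene only. The length that each value implies was whole for every gene (100% within 0.01) and identical across libraries, yet it correlated at 0.014 with the span and at 0.0086 with the exon length of the gene on whose line it stands. For HTA5 the implied length was 889 bases with 1103 exon bases, and for HTA3 12507 with 801.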
